A study of Mus musculus with 6 samples.

Results

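This report describes 10 genes whose mutation causes polycystic kidney disease, polycystic liver disease or tuberous sclerosis, or cysts in mouse models, measured in whole mouse kidneys. They are Pkd1, Pkd2, Pkhd1, Ganab, Prkcsh, Sec63, Tsc1, Tsc2, Bicc1 and Cys1, chosen by name for their role in cystic kidney disease. All 10 were found among the 24422 genes of the count tables, and all 10 passed the filter on low counts that left 15171 genes for testing. RNA sequencing was done on 6 kidneys of C57BL/6 mice at postnatal day 60. The control group (n = 3) is labelled wild type. The TfR1KO;KspCre group (n = 3) has the genotype Tfr1f/f;KspCre, in which the transferrin receptor gene Tfrc (TfR1), the entry route for transferrin iron, has floxed exons that a Cre recombinase removes. The Cre is driven by the promoter of Ksp-cadherin, so deletion is limited to the segments where that promoter is active, mainly the distal nephron, while the RNA came from the whole organ. All mice ate a diet with 220 ppm iron. The comparison asks whether genes known from inherited cystic disease differ in kidneys that become cystic after loss of TfR1.

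The proteins of these genes meet at the primary cilium, at the endoplasmic reticulum (ER) and at the growth regulator mTORC1. Polycystin-1 (Pkd1), a large receptor-like membrane protein, and polycystin-2 (Pkd2), a cation channel, form a complex found on the primary cilium of tubule cells, and their loss causes the dominant form of polycystic kidney disease. Fibrocystin (Pkhd1) is lost in the recessive form. Ganab and Prkcsh encode the catalytic and regulatory subunits of glucosidase II, which trims glucose from new glycoproteins in the ER, and Sec63 helps to pass new proteins through the ER membrane. These ER genes act on how much polycystin-1 matures, and their loss gives liver cysts. Hamartin (Tsc1) and tuberin (Tsc2) form the complex that switches off the small GTPase Rheb and with it mTORC1. Bicc1, an RNA-binding protein, and cystin (Cys1), a cilium-associated protein, are the genes hit in classical mouse strains with recessive cysts.

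The genes differ in structure and lie on 8 chromosomes, given here in mm9 (NCBIM37) from GENCODE M1. Pkd1 (ENSMUSG00000032855) lies on the plus strand of chromosome 17, 24686895 to 24733459, with a coding transcript of 14170 bases in 46 exons. Its neighbour Tsc2 (ENSMUSG00000002496) lies tail to tail with it on the minus strand, 24732882 to 24769574. The 2 genes share 578 bases of exon, which is 4.07% of the exon bases of Pkd1 and 9.11% of those of Tsc2. The strand setting of the counting was not found, so reads from the shared end cannot be assigned with certainty. Pkd2 (ENSMUSG00000034462, chromosome 5, 104888469 to 104934838, plus strand) and Cys1 (ENSMUSG00000062563, chromosome 12, 25350703 to 25366678, minus strand) overlap no other annotated gene. Pkhd1 (ENSMUSG00000043760, chromosome 1, 20047860 to 20608145, minus strand) spans 560286 bases, the longest of the 10. Ganab lies on chromosome 19, 8972580 to 8991153, Prkcsh on chromosome 9, 21807479 to 21818663, Sec63 on chromosome 10, 42481302 to 42552320, and Tsc1 on chromosome 2, 28496748 to 28546687, all on the plus strand. Bicc1 lies on the minus strand of chromosome 10, 70385580 to 70622448. Exons of 5 of the 10 genes overlap those of another gene, and beside the Pkd1 and Tsc2 pair these overlaps cover 1.45% (Pkhd1), 1.97% (Sec63) and 4.62% (Bicc1) of the exon bases of the gene.

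Promoters are shown for Pkd1 and Pkd2, since the values of these partner genes lay on opposite sides of control in these kidneys. Each is the 250 bases before the RefSeq start (GRCm38.p6), written 5′ to 3′ on the strand of the gene, and capitals mark a motif. The windows are chr17:24549700-24549949 (plus strand) for Pkd1 and chr5:104459207-104459456 (plus strand) for Pkd2.
Pkd1: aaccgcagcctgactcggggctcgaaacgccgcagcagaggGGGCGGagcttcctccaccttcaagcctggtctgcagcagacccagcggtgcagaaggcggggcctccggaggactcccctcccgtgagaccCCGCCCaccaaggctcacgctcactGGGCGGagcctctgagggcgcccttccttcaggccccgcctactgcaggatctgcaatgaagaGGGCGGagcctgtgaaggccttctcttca
Pkd2: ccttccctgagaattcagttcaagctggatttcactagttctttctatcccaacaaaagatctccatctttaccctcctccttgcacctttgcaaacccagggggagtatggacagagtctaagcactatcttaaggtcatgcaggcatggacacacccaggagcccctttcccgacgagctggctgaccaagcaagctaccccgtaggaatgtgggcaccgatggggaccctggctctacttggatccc
In the first, the capitals are the 4 matches of the GC box GGGCGG on either strand. In the second no capitals appear, because none of the motifs given here was found in this window. Among the 9 genes with a promoter entry (all but Bicc1), the GC box was in 3 (Sec63, Pkd1 and Ganab) and in 32.7% of all 32851 promoters, the hypoxia response core ACGTG in 3 (Pkhd1, Prkcsh and Sec63) and in 16.6%, and CCAAT in 2 (Sec63 and Ganab) and in 33.8%, counted on both strands. The share of G and C was 67.2% for Pkd1, 52.8% for Pkd2 and 42.0% for Pkhd1, with a median of 52.4% over all promoters.

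Several facts about the libraries bear on every value. Total counts were 11501053 to 21001341 per library, and each of the 10 genes had at least 755 counts in each library. Counting error of the gene with the fewest counts was therefore 3.64%, below the spread between libraries, which was 4.15% to 28.3% of the mean in controls and 6.20% to 32.3% in knockouts. Tfrc itself was at 138, 168 and 62.0 CPM (counts per 1000000 counts, TMM-normalised) in controls and at 214, 86.0 and 40.6 in the libraries labelled knockout 1 to 3. The highest Tfrc level was therefore in a library labelled knockout, and this gene gave no check of the labels (log2 fold change -0.11, SE 0.62, adjusted p 0.911, edgeR). On the first principal component, which held 69.4% of the variance, the library labelled knockout 1 was at 9.67, between the controls (-72.6 to -53.2) and the other knockouts (82.1 and 88.6). Control 2 held 52 counts of Xist and 518 to 1451 of each of 4 Y-linked genes, and the other 5 libraries held at least 10458 and at most 4. The ribosomal RNA precursor Rn45s took 2.59% of the counts in knockout 3, which was also the shallowest library, and 0.506% to 0.745% in the other 5. Cell type markers moved with genotype. Among tested markers, 5 of 6 of the proximal tubule fell, and their summed level was 9270 to 12500 CPM in controls and 1567 to 4888 CPM in knockouts. Of macrophage markers 5 of 6 rose (171 to 193 CPM and 513 to 1802 CPM), and of fibroblast markers 4 of 6 (309 to 562 CPM and 985 to 3802 CPM). None of the 5 thick ascending limb markers was called (3980 to 9711 CPM and 867 to 6200 CPM), nor any of the 5 for principal cells (816 to 1178 CPM and 325 to 1449 CPM), while 1 of 3 for the distal convoluted tubule fell (1180 to 1800 CPM and 92.6 to 1295 CPM). The summed thick ascending limb markers were at 6200, 867 and 1181 CPM in knockouts 1 to 3, so knockouts 2 and 3 lay far below every control. Their median log2 fold change was -1.46, and only Cldn16 was above 0 (0.65). No marker of these 6 lists was at 0 in a control. In RNA of a whole kidney, fewer cells of a type and less RNA per cell cannot be told apart, and the part of these differences in the values below was not tested.

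Of the 10 genes, 1 passed the threshold of 0.05 on the adjusted p and is here said to be called (quasi-likelihood test of edgeR, Benjamini-Hochberg over all genes tested), and that gene, Pkd2, was lower in knockouts. Over all genes tested 17.2% were called, 6.64% lower and 10.6% higher. In 4 of the 10 (Pkd2, Ganab, Tsc1 and Cys1) all knockouts lay below all controls, and in 0 they lay above, where 22.2% of all genes were lower and 23.8% higher without overlap, 46.0% in all. At an unadjusted p under 0.05 (edgeR) were 3 of the 10, Pkd1 higher and Pkd2 and Cys1 lower, beside 38.6% of all genes, 21.0% higher and 17.6% lower. The median log2 fold change of the 10 was -0.20, beside 0.02 for all genes tested, with 8 values below 0 and 2 above, and it was 0.066 beside 0.29 when libraries were scaled by their size alone. The number called changed with the libraries used. It was 0 without any 1 control, 0 without knockout 2 or knockout 3, and 2 (Pkd1 and Pkd2) without the library labelled knockout 1. In the same fits the number of all genes called was 0 without any 1 control (4270 to 4823 at an unadjusted p under 0.05, edgeR), 73 without knockout 2, 2 without knockout 3 and 5332 without the library labelled knockout 1. The lowest adjusted p of any gene without 1 control was 0.0667 to 0.118 (edgeR). A count of 0 there is therefore not particular to the 10 genes.

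**Figure D1:**
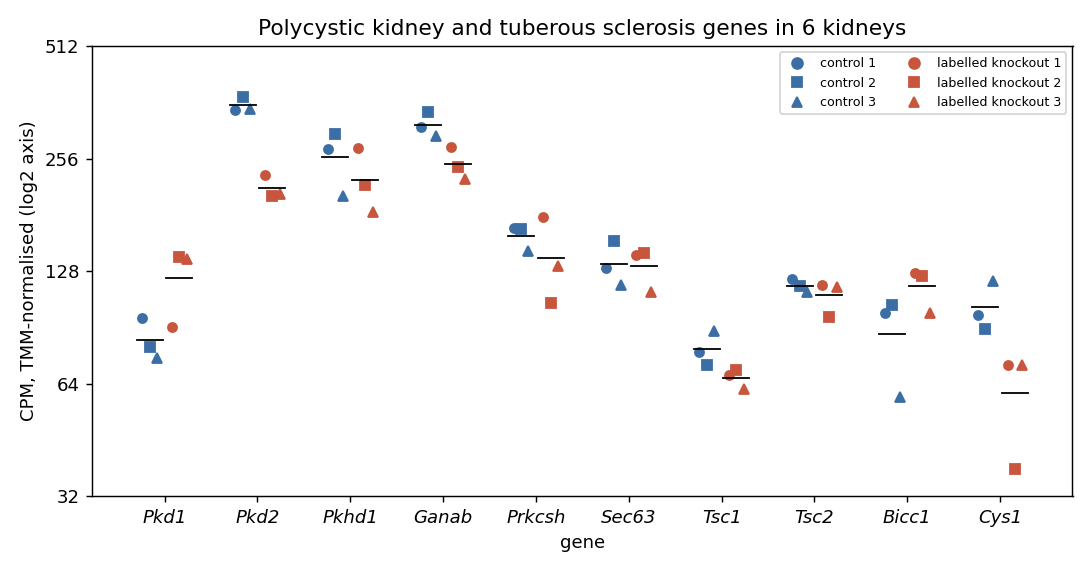
Level of each of the 10 genes in CPM (TMM-normalised, log2 axis) in 3 control and 3 knockout kidneys, with 1 point per library, a shape per replicate number and a black line at the mean of the group. Pkd2 lies at 345 to 373 CPM in controls and 203 to 232 CPM in knockouts, while Pkd1 lies at 74.9 to 96.1 and 90.7 to 139 CPM.

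Pkd2 fell in knockouts, and the values of its partner Pkd1 lay mostly above control without being called. Pkd2 was at 345, 373 and 347 CPM in controls 1 to 3 and at 232, 203 and 206 CPM in knockouts 1 to 3. Every knockout lay well below every control, and this held also for the library labelled knockout 1. The group means of 355 ± 15.9 CPM and 213 ± 15.8 CPM (SD, n = 3 each) differed by -0.73 on the log2 scale (SE 0.15, 95% interval -1.10 to -0.37; edgeR, adjusted p 0.0324). Pkd2 fell to 0.601 of the control level. The call was lost when any 1 library other than the one labelled knockout 1 was left out, with log2 fold changes of -0.77 to -0.70 and adjusted p of 0.0824 to 0.119 (edgeR), and it held without that library (-0.81). It held also without both control 2 and that library.

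Pkd1 was at 96.1, 80.3 and 74.9 CPM in controls and at 90.7, 139 and 138 CPM in knockouts. The library labelled knockout 1 lay inside the control range, and the other 2 knockouts lay above it. The group means of 83.8 ± 10.99 CPM and 122.6 ± 27.6 CPM (SD, n = 3 each) differed by 0.55 on the log2 scale (SE 0.21, 95% interval 0.06 to 1.04), which was not called (edgeR, adjusted p 0.0985). Pkd1 was called at 0.72 when the library labelled knockout 1 was left out (edgeR, adjusted p 0.0157). Without any 1 of the other libraries Pkd1 was at 0.44 to 0.64 and not called (edgeR, adjusted p 0.142 to 0.2415). Its neighbour Tsc2, with which it shares its last exon bases, was at -0.09 in the fit of all 6.

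Pkd1 counts were then set against Pkd2 counts within each library, a ratio that no library scaling can change. There were 0.278, 0.215 and 0.216 Pkd1 counts per Pkd2 count in controls, and 0.392, 0.687 and 0.668 in knockouts. The groups did not overlap, and the library labelled knockout 1 was the lowest knockout. The mean ratio was 2.41-fold higher in knockouts, a difference of 1.27 on the log2 scale (SD 0.21 in controls and 0.46 in knockouts). The exact two-sided permutation test over libraries gave p = 0.1, the smallest p that 3 against 3 allows, and 0.3 after adjustment over the 3 ratios compared. The difference stayed between 1.12 and 1.53 when 1 library was left out.

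**Figure D2:**
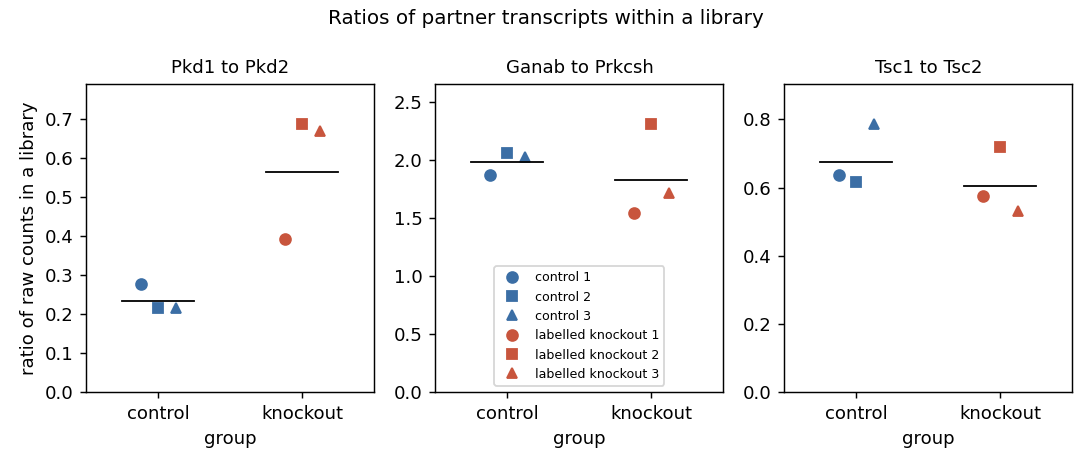
Ratio of raw counts of 2 partner genes within each library, for Pkd1 to Pkd2, Ganab to Prkcsh and Tsc1 to Tsc2, by group, with a shape per replicate number and a line at the geometric mean. The Pkd1 to Pkd2 ratio is 0.215 to 0.278 in controls and 0.392 to 0.687 in knockouts, and the other 2 ratios overlap between groups.

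Pkhd1, the gene of recessive polycystic kidney disease, was at 272, 298 and 204 CPM in controls and at 273, 218 and 184 CPM in knockouts. The groups overlapped, and the spread within controls was as wide as that between the groups. The log2 fold change was -0.20 (SE 0.22) and was not called (edgeR, adjusted p 0.541), with an interval of 0.605 to 1.26 times the control level. Without 1 library it ranged from -0.37 (without the library labelled knockout 1) to -0.073 (without knockout 3).

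None of the 3 ER genes was called by edgeR. Ganab, the catalytic subunit of glucosidase II, was at 311, 342 and 294 CPM in controls and at 275, 243 and 226 CPM in knockouts. The groups did not overlap, yet they lay close together. The log2 fold change was -0.35 (SE 0.16), called by DESeq2's Wald test (adjusted p 0.0466) but not by edgeR (adjusted p 0.163). Prkcsh, the regulatory subunit, was at 166, 166 and 145 CPM in controls and at 178, 105 and 132 CPM in knockouts. Here the library labelled knockout 1 was the highest of all 6 and knockout 2 the lowest, and the log2 fold change was -0.20 (SE 0.21; edgeR, adjusted p 0.517). It was -0.43 without the library labelled knockout 1 and -0.038 without knockout 2. The ratio of Ganab to Prkcsh was 1.87, 2.06 and 2.02 in controls and 1.54, 2.31 and 1.71 in knockouts. It differed by -0.12 on the log2 scale, less than the SD of 0.30 in knockouts (exact permutation test, two-sided p = 0.6). Sec63, which works at the translocon, was at 131, 154 and 118 CPM in controls and at 141, 143 and 112 CPM in knockouts, so the groups overlapped, with knockout 3 the lowest of all 6 and control 2 the highest. Its log2 fold change was -0.02 (SE 0.17; edgeR, adjusted p 0.937), with an interval of 0.746 to 1.30 times the control level.

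Neither of the tuberous sclerosis genes was called. Tsc1 was at 77.7, 71.9 and 88.2 CPM in controls and at 67.7, 69.7 and 61.7 CPM in knockouts. The groups did not overlap, but knockout 2 was only just below control 2. The log2 fold change was -0.26 (SE 0.13; edgeR, adjusted p 0.195), with an interval of 0.674 to 1.04 times the control level. Tsc2 was at 122, 117 and 112 CPM in controls and at 118, 96.8 and 116 CPM in knockouts. It had the lowest spread among controls of the 10 genes, 4.15% of the mean, and its log2 fold change was -0.09 (SE 0.14; edgeR, adjusted p 0.670), with an interval of 0.754 to 1.18 times the control level. It was -0.0013 without knockout 2 and -0.14 without the library labelled knockout 1. The ratio of Tsc1 to Tsc2 was 0.638, 0.616 and 0.786 in controls and 0.576, 0.720 and 0.531 in knockouts, which overlap (log2 difference -0.16, exact permutation test, two-sided p = 0.4). The difference was -0.054 without control 3 and -0.29 without knockout 2.

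The genes of the mouse cyst strains went apart in their values, and neither was called. Cys1 was at 97.6, 89.8 and 121 CPM in controls and at 71.6, 37.9 and 71.7 CPM in knockouts. All knockouts lay below all controls, and knockout 2 was far below the rest. The group means were 103 ± 16.04 CPM and 60.4 ± 19.5 CPM (SD, n = 3 each), and the log2 fold change of -0.77 was in size the largest of the 10 (SE 0.27, 95% interval -1.40 to -0.13; edgeR, adjusted p 0.0839). It was called by DESeq2's Wald test alone of the 16 alternatives (adjusted p 0.0351). Without knockout 2 it was -0.52, smaller in size than that of Pkd2 (-0.70). Bicc1 was at 98.6, 104 and 58.8 CPM in controls and at 127, 125 and 98.8 CPM in knockouts. Control 3 was well below the other 2 controls and knockout 3 lay within the control range, so the groups overlapped. The log2 fold change was 0.42 (SE 0.24; edgeR, adjusted p 0.232), and it was 0.20 without control 3.

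**Figure D3:**
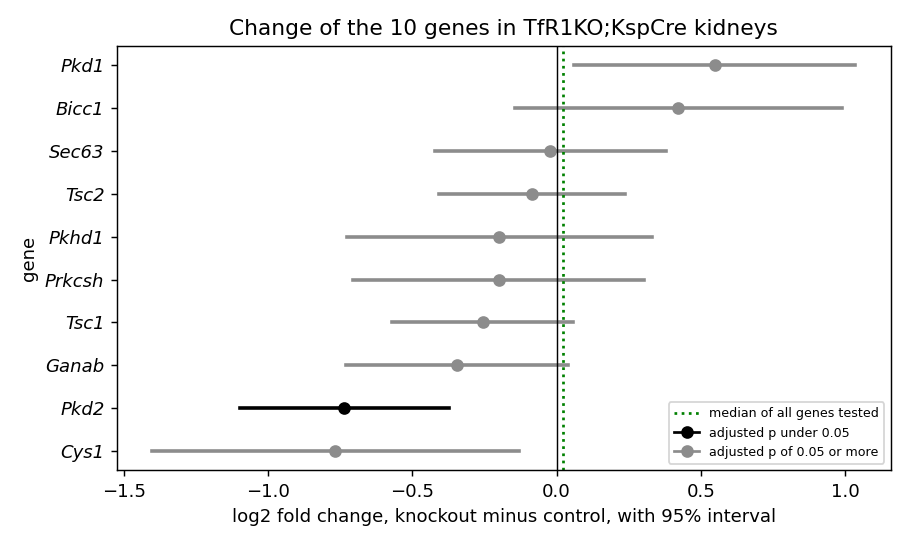
Log2 fold change of each of the 10 genes (knockout minus control) as a point, with its 95% interval as a bar, sorted by value, and the median of all genes tested as a dotted line. Pkd2 at -0.73 is the one gene drawn in black for an adjusted p under 0.05, Cys1 lies at -0.77 with a wider bar, and Pkd1 and Bicc1 lie above 0.

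The direction of the smaller values depended on scaling. With library size alone in place of TMM the median of all genes moved from 0.02 to 0.29, and that of the 10 genes from -0.20 to 0.066, with 3 values below 0 and 7 above. The log2 fold changes of Pkhd1, Prkcsh, Sec63, Tsc1 and Tsc2 then turned to 0.070, 0.061, 0.25, 0.010 and 0.18, whereas Pkd2 (-0.46), Cys1 (-0.50) and Ganab (-0.076) stayed below 0. Pkd1 was then at 0.82 and called (edgeR, adjusted p 0.0454), and Pkd2 was not called (adjusted p 0.0534). Pkd1 was above 0 and Pkd2 and Cys1 below 0 in all 16 alternatives.

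**Figure D4:**
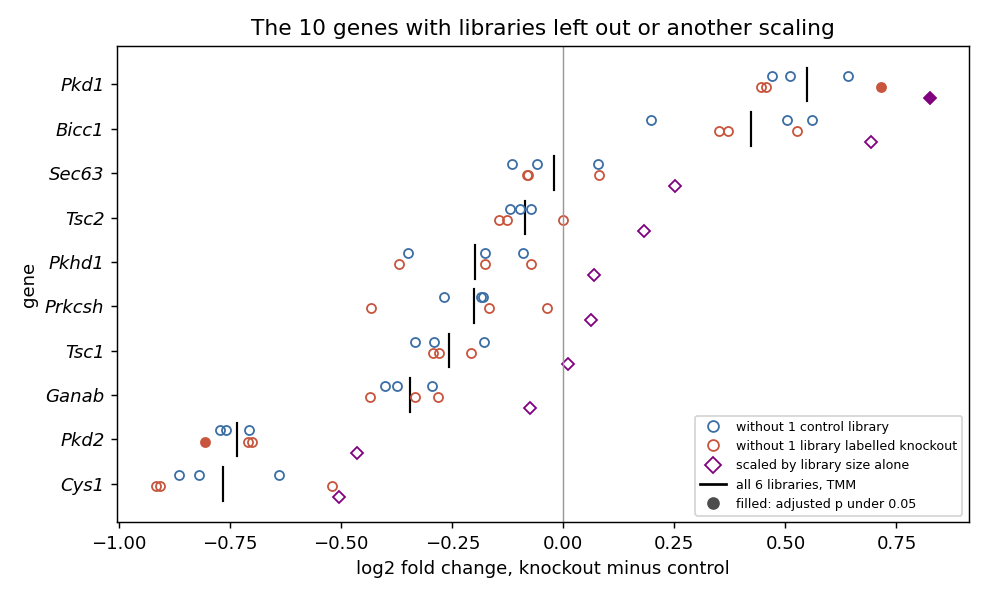
Log2 fold change of the 10 genes (knockout minus control) in the fit of all 6 libraries (black line), without 1 library at a time (circles, blue for a control and red for a library labelled knockout), and with library size alone (diamonds). Filled marks have an adjusted p under 0.05 (edgeR), which held for Pkd2 and Pkd1 without the library labelled knockout 1 and for Pkd1 with library size alone.

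Levels of different genes were compared as CPM per kb of the longest coding transcript. In controls the order was Cys1 at 118 ± 18.5, Ganab at 81.7 ± 6.24, Prkcsh at 79.0 ± 5.97, Pkd2 at 68.1 ± 3.05, Sec63 at 22.2 ± 3.05, Pkhd1 at 19.9 ± 3.77, Tsc2 at 18.8 ± 0.780, Bicc1 at 16.04 ± 4.53, Tsc1 at 10.3 ± 1.08 and Pkd1 at 5.91 ± 0.776 CPM per kb (SD, n = 3). Pkd1 was thus the scarcest transcript of the set and Pkd2 was among the more abundant. Ranges of neighbours overlapped between Ganab and Prkcsh, Sec63 and Pkhd1, Pkhd1 and Tsc2, Tsc2 and Bicc1, and Bicc1 and Tsc1. The ranges therefore do not separate the members of these pairs. Within each control library Pkhd1 lay below Sec63, but with the length of all exons the Pkhd1 mean was the higher (18.0 and 15.2 CPM per kb). Genes farther apart can differ, as Tsc1 lay below Sec63, Pkhd1 and Tsc2 in every control. In knockouts Pkd1 was at 8.65 ± 1.94 and Tsc1 at 8.62 ± 0.534 CPM per kb, and Pkd2 was at 40.9 ± 3.02. Several places rest on the length used. For Cys1 the longest coding transcript has 867 bases and its exons together 2646. With the length of all exons Cys1 was at 38.8 and Pkd2 at 34.9 CPM per kb. Sec63 moved from the fifth to the seventh place (15.2), and Tsc1 (6.70) came close to Pkd1, still the lowest (5.90).

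The genes whose pattern over the 6 libraries lay closest to a polycystin or to fibrocystin were sought among 11337 other genes by the root mean square difference of centred log2 CPM. For Pkd2 these were Katnal1 (0.039), Gkap1 (0.040) and Epb41 (0.055), where the median gene was at 0.44. For Pkd1 they were Pls3 (0.053), Ifrd1 (0.059) and Mef2a (0.061), and for Pkhd1 Tspan5 (0.061), Hyou1 (0.061) and Arhgap35 (0.062). Among the 10 genes themselves the closest pair was Pkhd1 and Sec63 (0.16), and the most distant were Pkd1 and Bicc1, each from Cys1 (0.83). Pkd1 and Pkd2 were at 0.70 and the neighbours Pkd1 and Tsc2 at 0.41. These distances describe 6 libraries and carry no test.

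Genes that work with these 10 were listed by role, and 12 of 69 tested were called (17.4%, beside 17.2% of all genes), 8 higher and 4 lower. None of the 4 tested relatives of the polycystins and fibrocystin was called, and all 4 were below 10 CPM in every library, with Pkdrej at -0.94 (SE 0.65) and Pkhd1l1 at 0.60 (SE 0.68) as the extremes of log2 fold change. Pkhd1l1 turned to -0.21 without knockout 3, and Pkdrej was at -0.25 without control 3 and at -1.34 without control 1. With all 6 libraries and TMM none of 12 other genes for polycystic kidney or liver disease was called by edgeR, with a median log2 fold change of -0.07. The highest was Vhl, which marks HIF for breakdown (0.29, SE 0.13; edgeR, adjusted p 0.142), which was at 0.56 and called with library size alone (edgeR, adjusted p 0.0308). In the fit of all 6 libraries edgeR called none of 12 genes of ER glycoprotein folding and translocation, and 11 had values below 0, with a median of -0.18, beside 7361 of all 15171 genes below 0. These values were taken with TMM. Library size alone moved the median of all genes from 0.02 to 0.29, and the median of this list was not taken with that scaling. The lowest was Sec62, partner of Sec63 at the translocon, at 358, 419 and 471 CPM in controls and at 296, 240.4 and 237 CPM in knockouts. The groups did not overlap, but Sec62 missed the threshold narrowly at -0.69 on the log2 scale (SE 0.19; edgeR, adjusted p 0.05002). It was called in 6 of the 16 alternatives, among them DESeq2's Wald test (adjusted p 0.00160), limma-voom (0.0490), DESeq2 size factors (0.0454, edgeR) and the fit without the library labelled knockout 1 (0.0171, edgeR), and with library size alone it was at -0.42 (0.109, edgeR). The highest was the folding sensor Uggt1 (0.16, SE 0.17; edgeR, adjusted p 0.495), which was at 0.026 without control 3, 0.29 without control 2 and 0.44 with library size alone.

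In the TSC and mTORC1 pathway 4 of 17 genes were called (23.5%), 2 in each direction, beside 17.2% of all genes, 10.6% higher and 6.64% lower. Mtor, the kinase of the complex, fell from 225 ± 78.3 CPM to 82.8 ± 19.8 CPM (SD, n = 3 each), with log2 fold change -1.44 (SE 0.29; edgeR, adjusted p 0.0316). Its controls were at 199, 313 and 163 CPM and its knockouts at 105, 74.5 and 68.4 CPM, so the controls were wide apart but all higher. Without 1 library its log2 fold change ranged from -1.67 (without the library labelled knockout 1) to -1.14 (without control 2). Prkaa2, a catalytic subunit of the energy sensor AMPK, fell by 1.19 on the log2 scale (SE 0.31; edgeR, adjusted p 0.0445). Akt1, a kinase that inhibits the TSC complex, rose by 0.67 (SE 0.15; edgeR, adjusted p 0.0331), and Ddit4, a stress-induced inhibitor of mTORC1, rose by 1.22 (SE 0.23; edgeR, adjusted p 0.0303).

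Among 9 tested partners of Bicc1 and cystin, 2 were called (22.2%), beside 17.2% of all genes. Invs (inversin, of the ciliary base) fell from 28.3 ± 1.60 CPM to 19.1 ± 1.24 CPM (SD, n = 3 each; log2 fold change -0.56, edgeR, adjusted p 0.0389). With library size alone Invs was at -0.29 and not called (edgeR, adjusted p 0.143). It was also not called without both control 2 and the library labelled knockout 1 (-0.57; edgeR, adjusted p 0.0874). Unc119, a carrier of lipidated cilium proteins, rose by 1.27 on the log2 scale (SE 0.30; edgeR, adjusted p 0.0373). Its paralogue Unc119b, the lowest of the list, was at -0.76 (SE 0.24) and not called (edgeR, adjusted p 0.0647). It was called by DESeq2's Wald test (adjusted p 0.0124), without the library labelled knockout 1 (0.0103, edgeR) and without both that library and control 2 (0.0254, edgeR), and with library size alone it was at -0.49 (0.107, edgeR).

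Of 15 signalling genes known from cyst growth 6 were called, 5 of them higher, beside 17.2% of all genes called and 10.6% higher. Without both control 2 and the library labelled knockout 1, Adcy5, Pde1a and Src were not called (edgeR, adjusted p 0.0636, 0.0519 and 0.0810). Myc, a growth transcription factor, was at 7.07, 4.82 and 5.28 CPM in controls and at 17.9, 22.9 and 17.0 CPM in knockouts. All knockouts were far above all controls, 3.36-fold on average (log2 SE 0.24; edgeR, adjusted p 0.0271). Lgals3 (galectin-3) rose 2.83-fold (log2 SE 0.18), Stat3 2.16-fold (log2 SE 0.14) and the kinase Src 1.33-fold (log2 SE 0.11), with adjusted p of 0.0271, 0.0271 and 0.0499 (edgeR). The Src call was lost with DESeq2 size factors (adjusted p 0.0558, edgeR), with no filter (0.0765) and with limma-voom (0.0554). Adcy5, an adenylyl cyclase that makes cAMP, rose by 1.86 (SE 0.51; edgeR, adjusted p 0.0497). This value was 1.02 without knockout 3, which held 47.4 CPM against 14.3 and 13.4 CPM in the other knockouts. With limma-voom it was 1.49 (adjusted p 0.106), and with at least 10 counts in every library the adjusted p was 0.0501 (edgeR). Pde1a, which breaks cAMP down, fell from 147 ± 6.66 CPM to 90.4 ± 18.3 CPM (SD, n = 3 each; log2 fold change -0.70, edgeR, adjusted p 0.0442), and with library size alone it was at -0.43 and not called (edgeR, adjusted p 0.0960). Lgals3 is also made in quantity by macrophages, whose summed markers were at 513, 1802 and 695.5 CPM in knockouts 1 to 3. Lgals3 was at 141, 173 and 170 CPM in the same libraries, and the part of macrophages in its rise was not tested. Among these lists 0 genes were called with the replicate block or without any 1 library other than the one labelled knockout 1, and 21 were called without that library (edgeR). The signs of the 12 were the same in the 16 alternatives.

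**Figure D5:**
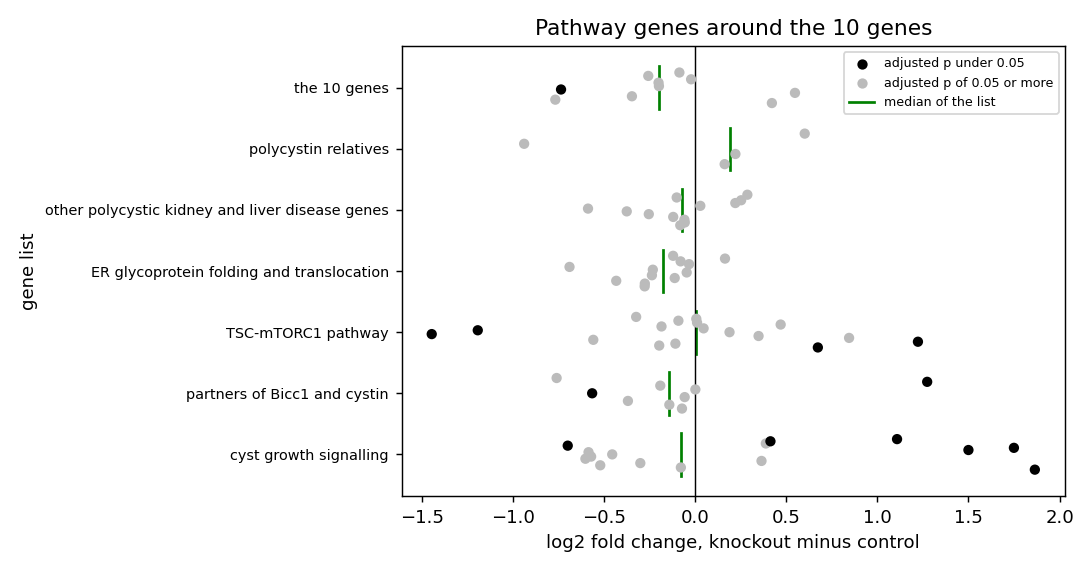
Log2 fold change (knockout minus control) of the 10 genes and of the tested genes of 6 lists of genes that work with them, with 1 point per gene, black for an adjusted p under 0.05, and a green line at the median of each list. The calls lie in the TSC-mTORC1, Bicc1 and cystin partner, and cyst growth signalling lists, and 1 (Pkd2) among the 10.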

How the data were processed

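Poly-A RNA of 6 whole kidneys was sequenced with single-end reads of 100 bases. Per the labels and the methods of the study, the authors used CASAVA 1.8.2, Trimmomatic, TopHat2 2.0.11 on mm9 and HTSeq, and deposited raw gene counts of uniquely mapped reads, in 1 table per group. The gene annotation and strand setting are not given in the sources used here. Groups and replicate numbers came from the sample titles, and "knockout" stands for the libraries labelled TfR1KO;KspCre.

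Genes were filtered with filterByExpr (minimum count 10, minimum total 15), normalised by TMM and tested with edgeR 4.0.16 (quasi-likelihood, package default) in R 4.3.3, with Benjamini-Hochberg adjustment over 15171 genes. SE is the log2 fold change divided by the square root of F. Alternatives used DESeq2 1.42.0, limma 3.58.1 (voom), other scalings and filters, libraries left out, and the replicate block. The script was tested on simulated counts. Replicates differed beyond sampling noise (chi-square per degree of freedom 52.9 to 125.5), so each library counted as 1. The labels do not name the animals, but the design text calls the replicates biological.

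Named were the 10 genes, all called genes of the lists, the extremes of each list, the 3 nearest genes of 3 members, Tfrc and the markers. A result is not reported here because it is withheld. Members, lists and tests were chosen with earlier results of these data known.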

Additional observations from a re-analysis of the deposited data

How the results depend on the processing

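The number of the 10 genes called was 3 with DESeq2's Wald test (Pkd2, Cys1 and Ganab), where 4882 of all genes were called against 2612. With the replicate block it was 0, as was the number of all genes and of pathway genes called, although 5432 genes had an unadjusted p under 0.05 (edgeR), as had 3 of the 10 (5862 and 3 without the block). Libraries of the same replicate number deviated together at r = -0.13, 0.012 and 0.21, beside -0.25 to 0.22 for libraries of different number. With 3 libraries per group these values cannot decide whether the numbers mark pairs. Without 1 library at a time the calls ranged from 0 to 2 for the 10 genes, from 0 to 5332 for all genes and from 0 to 21 for pathway genes. With the replicate block Pkd2 was at -0.74 (edgeR, adjusted p 0.0778). Sec63 turned to 0.056 with upper quartile scaling, 0.25 with library size alone and 0.031 without both control 2 and the library labelled knockout 1, and ranged from -0.11 to 0.081 without 1 library. With library size alone Pkhd1, Prkcsh, Tsc1, Tsc2 and Tfrc turned to 0.070, 0.061, 0.010, 0.18 and 0.14. Tfrc ranged from -0.96 to 0.29 and Pkhd1l1 from -0.21 to 1.22 without 1 library. The log2 ratio of Ganab to Prkcsh ranged from -0.29 to 0.0043 without 1 library and was 0.033 without both. The cause was not tested.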
